A study of Homo sapiens with 3 samples.

Results

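The 2290 kept cells of the library labelled day 0 were described, out of 8889 kept cells in 3 single-cell libraries from H9, an established line of human embryonic stem cells. A barcode was a member if it carried 1000 or more unique molecular identifiers (UMIs, tags that mark single captured RNA molecules) and 500 or more genes, and if mitochondrially encoded genes gave no more than 25% of its UMIs. The 3 libraries come from the droplet method inDrop in its TruDrop form, and the other 2 are labelled day 2 and day 6 of differentiation into neural progenitor cells. The labels give H9, the STEMdiff SMADi Neural Induction Kit and mTeSR medium for all 3 libraries, the cell type "human embryonic stem cell" for this one, and a differentiated or neural progenitor identity for the others. The sample titles carry the letter A for the libraries labelled day 0 and day 6 and B for that labelled day 2; what the letters stand for is not given in the sources used here, and every comparison with the library labelled day 2 crosses them. H9 is a single line, each day is 1 library, and the series title places the data in a study of DNA demethylation and chromatin accessibility during this differentiation.

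Neural progenitor cells are the dividing cells of the neural tube that later give rise to neurons and glia. Blocking the SMAD branches of TGF-beta and BMP signalling turns pluripotent cells towards neuroectoderm, and without added caudalising signals such cells take on a forebrain character. PAX6, LHX2 and SIX3 are homeodomain factors of forebrain and eye field progenitors, NR2F2 is an orphan nuclear receptor, CDH2 is N-cadherin, the adhesion molecule of the neuroepithelium, and DLK1 is a membrane-bound relative of the Notch ligands encoded in an imprinted domain.

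The content of the 2290 cells went against the library's own label and with the name neural progenitor, so the cells are called by their library label throughout. Of the 6 progenitor markers, DLK1 was at 3137 UMIs per 1000000 UMIs (CPM), CDH2 at 445.7 CPM, NR2F2 at 263.9 CPM, PAX6 at 176 CPM, LHX2 at 82.4 CPM and SIX3 at 82.2 CPM. Most of the defining pluripotency genes were low: TDGF1, a NODAL co-receptor, had 0 UMIs, which allows up to 0.106 CPM at 3 UMIs. POU5F1 was at 2.22 CPM, NANOG at 2.19 CPM, ESRG at 0.282 CPM and UTF1 at 0.141 CPM. L1TD1, an RNA-binding protein of pluripotent cells, was at 8.82 CPM. DPPA4, another of their marker genes, was the exception at 75.2 CPM, close to LHX2 and SIX3.

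The library held 28341741 UMIs in its kept cells, with a median of 8770 UMIs and 3135 genes per cell, against medians of 3814 and 4429 UMIs in the libraries labelled day 2 and day 6. Mitochondrially encoded genes (names starting with MT-) made up 12.4% of the UMIs and ribosomal protein genes 16.8%. The mitochondrial share had a median of 12.1% per cell, and 463 cells (20.2%) lay under 5%, against 49.0% and 39.4% of the cells in the libraries labelled day 2 and day 6. Of the member barcodes, 38 were also kept in the library labelled day 2 and 82 in that labelled day 6, with 2 in both. Levels, Fano factors and correlations were also computed without them. With 1 library per day there is no replicate and no test, and every interval covers counting error only. The spread between cultures was not measured.

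The most abundant RNAs outside those 2 classes included genes of translation, protein folding, chromatin and the cytoskeleton, together with 2 RNAs that were far higher than in the other libraries. The 20 highest held 7.82% of all UMIs. EEF1A1, the elongation factor that brings aminoacyl-tRNA to the ribosome, was at 4956 CPM, the chaperones HSP90AA1 and HSP90AB1 were at 3805 and 2433 CPM, and the chromatin-associated PTMA was at 3270 CPM. HNRNPA1, a splicing factor, was at 2651 CPM and the actin gene ACTG1 at 2480 CPM. The tubulin gene TUBB was at 2178 CPM and FTL, the light chain of the iron store ferritin, at 2038 CPM. NUCKS1, a DNA-binding protein of proliferating cells, was at 1683 CPM. The first 2 ranks went to RNAs of which less is known: RP5-857K21.4 at 13984 CPM and LINC00486 at 13877 CPM. RP5-857K21.4 had no entry in the annotation used here, so it could not be placed. Its level followed the mitochondrial share from cell to cell (r = 0.86), and whether its reads came from mitochondrial RNA or a nuclear copy of it was not tested, so its rank outside the mitochondrial class rests on its name alone.

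DLK1 and MALAT1 stood out from the other libraries. DLK1 was at 3137 CPM (95% interval 3117 to 3158) here, at 79.5 CPM in the day 2 library and at 315 CPM in the day 6 library, as labelled. These are ratios of 39.5 (37.6 to 41.5) and 9.96 (9.78 to 10.1). MALAT1, a long RNA retained in the nucleus, was at 4117 CPM against 799 and 639 CPM, ratios of 5.15 and 6.45. Of the other 18, HSP90AA1 was 2.55 times, NUCKS1 2.25 times and PTMA 2.13 times the library labelled day 6, and FTL 2.02 times that labelled day 2. ACTB and ACTG1 were lower than in both others, at 0.617 and 0.672 times the library labelled day 2.

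**Figure D1:**
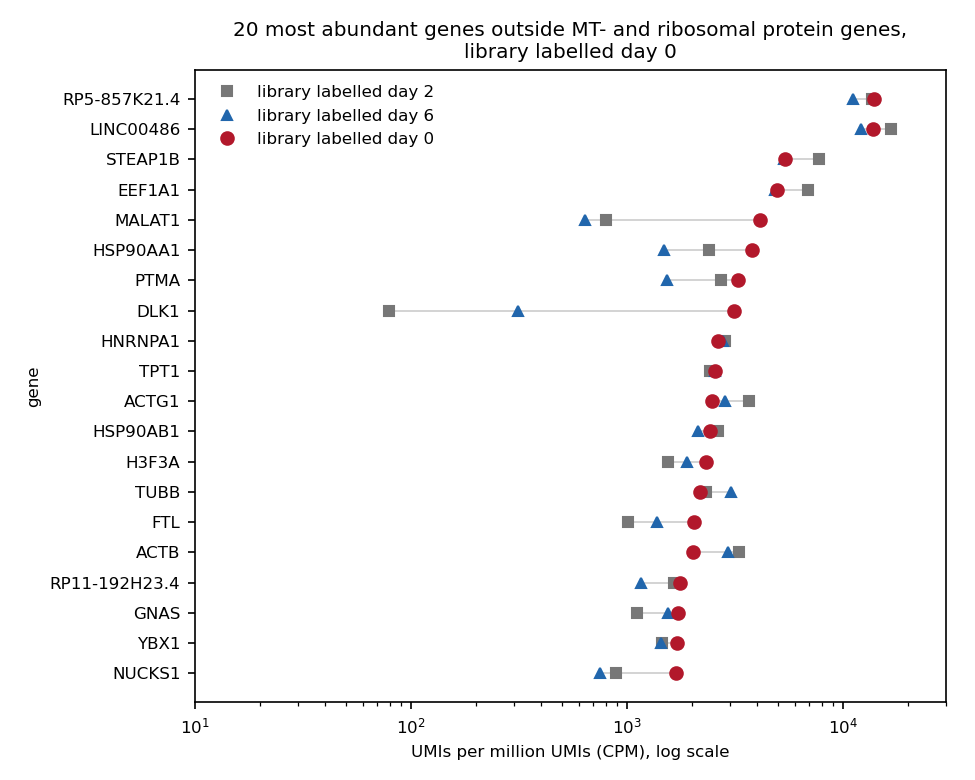
Level of the 20 most abundant genes of the library labelled day 0 outside mitochondrially encoded and ribosomal protein genes, in CPM on a log axis, with 1 point per library. DLK1 and MALAT1 have the widest gaps to the other libraries, at 3137 against 79.5 and 315 CPM and at 4117 against 799 and 639 CPM, while most others lie close together.

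The mitochondrial class was led by the ribosomal RNA MT-RNR2 at 29227 CPM, against 17063 and 18463 CPM in the libraries labelled day 2 and day 6. Next came MT-ATP6 at 13588 CPM, MT-CO3 at 12323 CPM, MT-ND1 at 11265 CPM and MT-CO1 at 10801 CPM, which code for parts of ATP synthase and of the respiratory chain. Of the ribosomal protein genes, RPS2 was highest at 5321 CPM, then RPL23 at 5123, RPS19 at 4583, RPL15 at 4552 and RPL37A at 4336 CPM.

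RNA of the markers was also found in barcodes that hold too few UMIs to be taken for cells. In the 7670 barcodes of the library under 500 UMIs, which held 1595571 UMIs together, PAX6 was at 179 CPM, CDH2 at 466 CPM and DLK1 at 4899 CPM. In the kept cells PAX6, CDH2 and DLK1 were at 176, 445.7 and 3137 CPM, so DLK1 had the largest gap and was higher in the barcodes under 500 UMIs. MALAT1 there was at 2304 CPM against 4117 CPM in the kept cells, and MT-ND1 at 27380 CPM against 11265 CPM. Free RNA from broken cells therefore cannot be told apart from a cell's own RNA for these markers within this library. Shares of cells with a UMI were read beside the library labelled day 2, which held far less of this RNA. PAX6 was at 6.64 CPM and DLK1 at 79.5 CPM there, so its low shares do not separate free RNA from a cell's own.

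At 10 CPM or more the library held 9140 of 31113 symbols (29.4%). Transcription factors reached that level in 478 of 1215 cases (39.3%), and 129 of them reached 50 CPM. The highest was NR6A1, an orphan nuclear receptor of early development, at 682 CPM. The SOX factors followed, which are high mobility group proteins that hold the progenitor state or prime neuronal genes: SOX2 at 600.4 CPM (591 to 609), SOX11 at 535 CPM and SOX4 at 468 CPM. Each was present with at least 1 UMI in most cells: of 1560 cells with at least 5000 UMIs, each thinned at random to 5000, 90.7% had SOX2, 88.9% SOX11 and 85.3% SOX4. SOX2 was lower than in the library labelled day 6 (810 CPM, ratio 0.741), SOX11 was 3.62 times the library labelled day 2, and SOX4 was 2.46 times the library labelled day 6.

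Next in order were GLI3, the zinc finger effector that represses hedgehog targets in the dorsal forebrain, at 297 CPM, and NR2F2 at 263.9 CPM. The basic helix-loop-helix partners TCF12 and TCF4 were at 250.3 and 229.6 CPM. SREBF2, which drives cholesterol synthesis genes, was at 209 CPM, POU2F1 at 202 CPM and the zinc finger factor ZNF521 at 201 CPM. Lower among the top 20 came factors from ZNF638 at 197 CPM to ZFHX4 at 179 CPM. They included SMAD2 and TCF7L2, which carry TGF-beta and WNT signals, BBX, TEAD1, ZNF738 and ID3.

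Among these 20, NR2F2 and ZFHX4 were furthest above the other libraries. NR2F2 was at 263.9 CPM (258 to 270) against 1.36 and 8.70 CPM in the libraries labelled day 2 and day 6, ratios of 194 (134 to 293) and 30.3 (27.3 to 33.8). ZFHX4, a giant homeodomain and zinc finger protein, was at 179 CPM against 7.42 and 37.0 CPM. GLI3 was 6.12 and 2.48 times and ZNF521 5.50 and 1.58 times the libraries labelled day 2 and day 6. TCF7L2 was lower than in both, at 0.839 and 0.583 times.

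**Figure D2:**
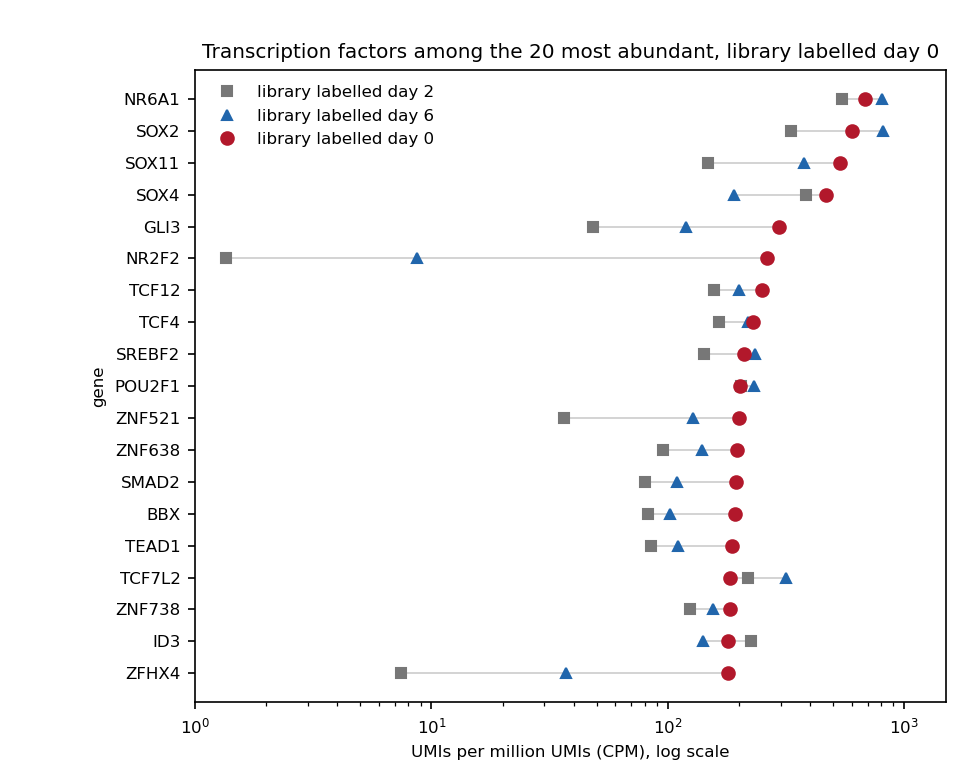
Level of transcription factors among the 20 most abundant of the library labelled day 0, in CPM on a log axis, with 1 point per library. NR2F2 and ZFHX4 are separated from both other libraries by the widest gaps, while NR6A1, TCF4 and POU2F1 lie close to them.

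Families of patterning factors differed in how many genes reached 10 CPM, a level reached by 29.4% of all symbols and 39.3% of transcription factors. Of 38 HOX and CDX genes, which mark the hindbrain and trunk, none reached 10 CPM and their sum was 1.83 CPM, against 3.10 and 1.77 CPM in the libraries labelled day 2 and day 6. Of 9 PAX genes only PAX6 reached 10 CPM. Of the 6 genes related to SIX3, only SIX3 and SIX4 did, and of 12 LIM homeobox genes only LHX2 and LHX5. The group of OTX, EMX, HESX, RAX, VAX and GSC genes had 5 of 12, with OTX2 highest at 86.1 CPM and RAX, a factor of the eye field, at 34.6 CPM. The POU family summed to 282 CPM against 2266 CPM in the library labelled day 2, where POU5F1 is its largest part.

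The neural progenitor list had 32 of 39 genes at 10 CPM or more, and its sum was 8025 CPM against 2567 and 4906 CPM in the libraries labelled day 2 and day 6. The forebrain and eye field list had 14 of 31, with sums of 1815 CPM against 1386 and 2563 CPM. Of the 47 genes of both lists with at least 10 CPM here or in the library labelled day 2, 26 reached 2-fold or more and 4 lay at 0.5 times or less, where over all such genes 10.2% were higher and 10.1% lower. Against the library labelled day 6 the counts were 20 higher and 12 lower of 47, with 6.09% and 9.94% over all genes. The median log2 ratio over the 47 was 1.67 against the library labelled day 2 and 0.24 against that labelled day 6, beside medians of -0.01 and -0.11 over all genes.

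The 6 markers differed in level and in the share of cells with a UMI, and at 5000 UMIs per cell that share depends on the level. The means per thinned cell were 0.912 UMIs for PAX6, 0.435 for LHX2 and 0.414 for SIX3. A cell without a UMI is therefore not taken to lack the RNA. PAX6 was at 176 CPM (171 to 180.4) here, against 6.64 and 27.9 CPM in the libraries labelled day 2 and day 6. It was found in 51.5% of cells thinned to 5000 UMIs (49.0 to 54.0%; 63.7% of all kept cells unthinned), against 2.70% and 10.8% of cells in the others at the same depth. Before thinning the median depth of those cells was 14216, 11146 and 13940 UMIs. LHX2 was at 82.4 CPM against 6.98 and 13.8 CPM, in 31.3% of cells against 2.20% and 4.32%. SIX3 was at 82.2 CPM against 4.12 and 26.2 CPM, in 31.2% of cells against 2.00% and 10.7%. All 3 were higher here than in both others.

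NR2F2 was found in 66.7% of thinned cells, against 0.600% and 3.19% in the libraries labelled day 2 and day 6. CDH2 was at 445.7 CPM against 47.9 and 209 CPM, in 85.2% of cells against 20.8% and 57.9%. DLK1 was found in 99.4% of cells against 5.70% and 47.7%, with 0 to 62 UMIs per thinned cell and a median of 14.

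Other progenitor genes were higher here than in both libraries. LIX1 was at 109 CPM against 0.970 and 13.7 CPM, and MEIS2, a homeodomain factor, at 98.6 CPM against 3.10 and 13.7 CPM. NR2F1, the close relative of NR2F2, was at 30.2 CPM against 0.776 and 2.76 CPM. HES5, a Notch target that holds back neuronal differentiation, was at 32.7 CPM against 3.73 and 7.03 CPM. In the forebrain list RAX was 29.8 and 18.1 times, OTX1 13.6 and 9.53 times, FEZF2 13.8 and 4.95 times, DMRTA1 5.65 and 13.0 times and SP8 4.22 and 8.31 times the libraries labelled day 2 and day 6. DACH1, a factor of the retinal network, was at 170 CPM against 14.8 and 21.6 CPM, and GLIS3 at 148 CPM against 4.02 and 36.0 CPM.

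A second group of progenitor genes was lower here than in the library labelled day 6. FEZF1, a zinc finger repressor of the early forebrain, was at 159.8 CPM against 424 CPM, and LHX5 at 52.3 CPM against 129 CPM. SOX21 was at 53.4 CPM against 127 CPM, ZEB2 at 54.8 CPM against 116 CPM and HESX1 at 16.3 CPM against 99.3 CPM. Of these, FEZF1, LHX5, SOX21 and ZEB2 were still above the library labelled day 2, where they were at 29.4, 2.57, 2.52 and 6.11 CPM. SOX1 was at 1.62 CPM and low in all 3 libraries.

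The dorsal list, of genes of the roof and border of the neural tube, had 5 of 18 genes at 10 CPM or more. This was near the share over all symbols (29.4%), which is also the reference for the ventral, midbrain and hindbrain lists. All 5 of the dorsal list were at least 2-fold above the library labelled day 2 (10.2% over all genes). Against the library labelled day 6, 3 of its 6 measured genes were higher and 1 lower, beside 6.09% and 9.94% over all genes. WLS, which escorts WNT proteins to the membrane, was at 192 CPM against 4.56 and 29.6 CPM. BMP4 was at 142 CPM against 5.58 and 3.22 CPM, ratios of 25.4 and 44.0, and in 37.0% of cells against 2.00% and 1.54%. MSX1, a downstream gene of BMP, was at 2.93 CPM. The ventral list had 3 of 13 genes at 10 CPM or more, all 3 at least 2-fold above the library labelled day 2, while against that labelled day 6, 1 of 3 was higher and 0 lower. They were PTCH1, the hedgehog receptor, at 36.7 CPM against 13.8 and 28.9 CPM, HHIP, a hedgehog-binding protein, at 12.8 CPM against 5.96 and 9.43 CPM, and RAX, which the forebrain list also holds. The list summed to 86.6 CPM against 33.0 and 54.9 CPM, and its floor plate genes SHH and FOXA2 were both at 0.247 CPM. The midbrain list had 1 of 13 genes at 10 CPM or more, SPRY1, with EN1 and WNT1 at 0 UMIs. The hindbrain and spinal cord list had 0 of 23.

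**Figure D3:**
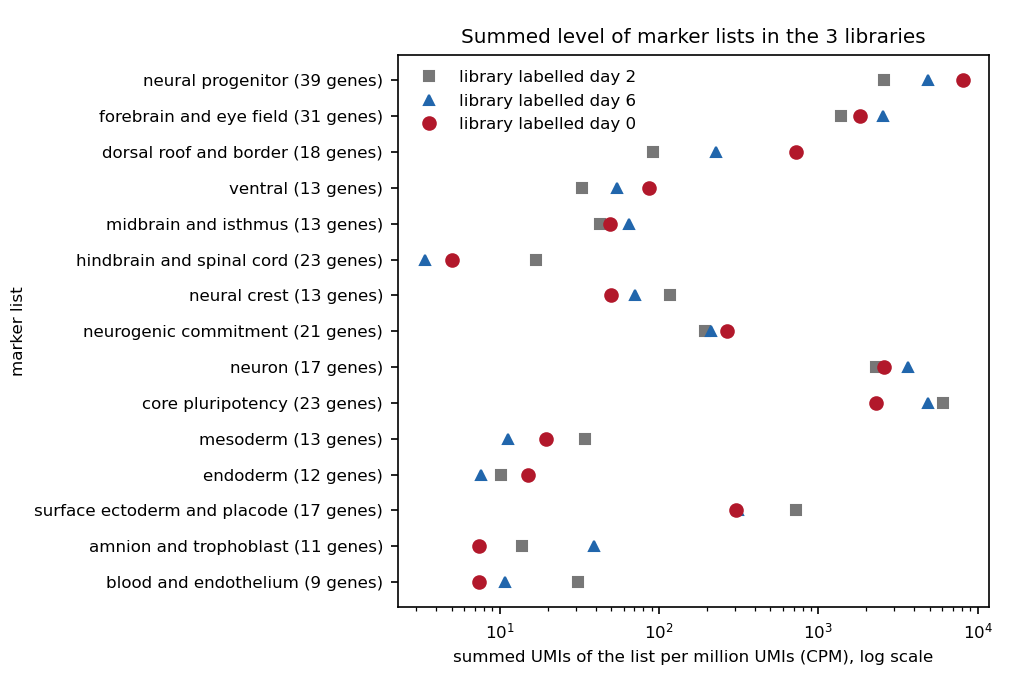
Summed level of 15 marker lists in CPM on a log axis, with 1 point per library and the number of genes found in brackets. The library labelled day 0 is highest for the neural progenitor list (8025 CPM) and the dorsal list (723 CPM), and lowest of the 3 for core pluripotency (2311 CPM).

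Neuronal genes were present in part. The neuron list had 10 of 17 genes at 10 CPM or more, led by TUBB2B at 803 CPM, STMN1 at 724 CPM and DPYSL3 at 505 CPM. Against the library labelled day 2, 3 of 10 measured genes reached 2-fold and 0 lay at 0.5 times or less, beside 10.2% and 10.1% over all genes. Against the library labelled day 6 it was the other way, with 0 of 12 and 5 of 12, beside 6.09% and 9.94%. DCX, a microtubule protein of young neurons, was at 9.53 CPM against 59.9 CPM, and STMN2 at 3.28 CPM against 41.9 CPM. TUBB3 had 0 UMIs here and was at 0.0485 and 0.0242 CPM in the others, so it was near 0 in all 3 libraries. MAP2, a dendritic microtubule protein, was at 174 CPM against 24.4 and 96.3 CPM. The neurogenic commitment list had 4 of 21 genes at 10 CPM or more, beside 29.4% of all symbols. Against the library labelled day 2, 3 of its 6 measured genes were at least 2-fold higher and 3 lay at 0.5 times or less. Against that labelled day 6 it was 2 and 0 of 4, beside the same shares over all genes as above. Within this list CDKN1C, a cell cycle inhibitor, was at 141 CPM against 43.1 and 99.8 CPM. The Notch ligand DLL1 was at 43.0 CPM against 8.39 and 10.3 CPM, while the proneural factors NEUROG1 and NEUROD1 both had 0 UMIs.

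Marker lists of other cell types mostly had few genes at 10 CPM or more, a level that 29.4% of all symbols reached. In the mesoderm, endoderm and neural crest lists 1 gene each reached 10 CPM, with GSC of the mesoderm list at 12.3 CPM and CXCR4 of the endoderm list at 11.1 CPM, and none did in the lists of amnion and trophoblast (0 of 11) or of blood and endothelium (0 of 9). Of the surface ectoderm list 5 of 17 did, near the share over all symbols. The keratins KRT18, KRT8 and KRT19 were at 96.6, 80.2 and 69.1 CPM, SIX4 at 16.3 CPM and EPCAM at 12.8 CPM. KRT18 was found in 30.4% of thinned cells, against 62.8% and 21.8% in the libraries labelled day 2 and day 6. The list summed to 307 CPM against 729 and 314 CPM. CDH1, the epithelial cadherin, was at 1.13 CPM. The core pluripotency list had 8 of 23, led by genes that progenitors share: LIN28A at 1039 CPM, SOX2, SALL4 at 176 CPM and LIN28B at 153 CPM. Against the library labelled day 2, 0 of its 15 measured genes reached 2-fold and 11 lay at 0.5 times or less, beside 10.2% and 10.1% over all genes. Against that labelled day 6, 0 and 7 of 11 did, beside 6.09% and 9.94%.

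The pathway lists are given by how many genes lay at least 2-fold above and at most 0.5 times each other library. Over all genes these shares were 10.2% and 10.1% against the library labelled day 2, and 6.09% and 9.94% against that labelled day 6. In the Notch list DLK1 was far above the rest, and the receptors NOTCH2, NOTCH3 and NOTCH1 were at 79.7, 30.3 and 26.9 CPM and the ligand JAG1 at 76.4 CPM. Against the library labelled day 2 the list had 6 higher and 2 lower of 12, and against that labelled day 6, 4 and 0 of 10. The WNT list had 9 higher and 1 lower of 18 against the library labelled day 2, and 5 and 2 of 18 against that labelled day 6. The secreted antagonist SFRP1 was at 715 CPM against 701 and 1292 CPM, the receptors FZD3 and FZD5 were at 378 and 177 CPM, and FRZB, another antagonist, was at 110 CPM against 7.71 and 66.2 CPM. The BMP list had 3 higher and 1 lower of 12 against the library labelled day 2, and 4 and 0 of 11 against that labelled day 6, with the target ID3 at 181 CPM against 224 and 141 CPM and ID1 at 87.3 CPM against 114 and 13.8 CPM. In the imprinted list 6 of 12 were higher and 1 lower than in the library labelled day 2, and 4 and 0 of 12 than in that labelled day 6. MEG3, the noncoding RNA of the DLK1 domain, was at 19.1 CPM against 0.921 and 5.02 CPM, and PEG10 was at 167 CPM against 45.1 and 71.6 CPM. SNRPN, the 1 that was lower than in the library labelled day 2, was at 276 CPM against 763 and 455 CPM.

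Cholesterol synthesis, stress and glycolysis genes were counted in the same way, beside the same shares over all genes. Of the cholesterol list 7 of 20 were higher and 0 lower against the library labelled day 2, but 0 higher and 2 lower of 20 against that labelled day 6. HMGCS1, an early enzyme of the pathway, was at 349.9 CPM against 102 and 244 CPM. Of the ATF4 stress genes, 0 of 19 were higher and 11 lower than in the library labelled day 2, and 1 and 0 of 14 than in that labelled day 6: ASNS was at 48.1 CPM against 184 and 52.0 CPM. The p53 targets had 5 higher and 1 lower of 18 against the library labelled day 2 and 5 and 1 of 16 against that labelled day 6, with CDKN1A, the inhibitor p21, at 62.3 CPM against 4.95 and 4.63 CPM. The glycolysis and hypoxia list had 0 higher and 7 lower of 20 against the library labelled day 2, and 3 and 2 of 19 against that labelled day 6, with LDHA at 203 CPM against 738 and 164 CPM.

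Differences between cells were then described over the 1560 cells with at least 5000 UMIs, all thinned to 5000 UMIs so that depth was equal. For each of the 3357 genes with at least 50 CPM the Fano factor was computed, the variance of UMIs over their mean, which is 1 where only counting noise separates the cells. It was at least 1.5 in 189 genes (5.63%). Among the mitochondrial genes MT-RNR2 had 23.5 and MT-ATP6 16.4. Outside mitochondrial and ribosomal protein genes RP5-857K21.4 was highest at 15.4, and MALAT1 followed at 10.8, with 0 to 120 UMIs per cell and a median of 17.

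Several genes were carried by few cells. MT2A, a metallothionein that binds zinc and copper, had a Fano factor of 9.80 and was found in 31.3% of cells, against 20.2% and 50.7% in the libraries labelled day 2 and day 6. The 5% of cells with most MT2A held 54.0% of its UMIs, where counting noise alone would give 15.9%. MT1E, of the same family, was found in 9.74% of cells, and 5% of cells held 81.6% of its UMIs. ACTC1, the cardiac alpha actin, was found in 10% of cells, and 5% of cells held 77.7% of its UMIs with a maximum of 26 in a cell. CDKN1A was found in 15.3% of cells, and 5% of cells held 60.6% of its UMIs. For these 4 genes the typical cell had 0 UMIs.

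Other variable genes were present in most thinned cells at differing levels, from 53.6% of cells for UBE2C to 99.8% for HSP90AA1. FTL had a Fano factor of 6.43, with 0 to 66 UMIs per cell and a median of 8, and DLK1 one of 5.93. HSP90AA1 ranged from 0 to 86 UMIs with a median of 17, and XACT, a long noncoding RNA made from the X chromosome in pluripotent cells, from 0 to 38 with a median of 4. XACT was at 1127 CPM here, against 293 and 783 CPM in the libraries labelled day 2 and day 6. HIST1H4C, a histone gene expressed in S phase, had a Fano factor of 6.27, and the mitotic genes KPNA2, TOP2A, HMGB2 and UBE2C had 3.60, 3.43, 3.03 and 2.87.

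Of the 129 transcription factors with at least 50 CPM, 5 had a Fano factor of at least 1.5 (3.88%, against 5.63% of all genes): ZNF385B at 2.21, GLIS3 at 1.66, SOX2 at 1.58, SOX5 at 1.56 and SOX4 at 1.54. ZNF385B was found in 41.3% of cells, against 4.30% and 4.73% in the other libraries, and the 5% of cells with most of it held 30.6% of its UMIs where counting noise alone would give 19.6%. PAX6 had a Fano factor of 1.47, with 0 to 7 UMIs per cell. The other markers had 1.38 for NR2F2, 1.36 for LHX2, 1.27 for SIX3 and 1.25 for CDH2.

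Pearson correlations of log(1 + UMIs) across the same cells were computed for all 5633046 pairs of these genes. An r of at least 0.2 was reached by 2698 pairs (0.0479%) and of at most -0.2 by 1457 pairs (0.0259%). Outside mitochondrial and ribosomal protein genes the counts were 1539 of 5299140 pairs (0.029%) and 148 pairs (0.00279%). All cells come from 1 library, the values are descriptions with no test, and weak values in such sparse counts are not read. The counts of pairs moved with the mitochondrial share and the depth: with cells of at most 10% mitochondrial UMIs alone 13857 pairs reached 0.2. Beside the pairs below, r after the mitochondrial share and the depth were regressed out is therefore given where the 2 values differ by over 1.5 times; this step was not run for pairs with a mitochondrially encoded gene.

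Linking genes by their mean correlation gave 12 groups of at least 5 genes, called modules here and numbered by size. Module 1 was mainly ribosomal proteins (64 genes, 55 of them ribosomal). Module 3 held mitochondrial genes together with others (28 genes, 14 of them mitochondrially encoded). The others included PCDH15, which followed the mitochondrial share (r = 0.55), and RNAs that did so far less, such as MALAT1 (0.13) and NLGN1 (0.09). Their sums ran opposite to each other (r = -0.56, and -0.15 with the mitochondrial share and depth regressed out). The summed UMIs of module 3 followed the mitochondrial share at r = 0.85 and those of module 1 at r = -0.56. The mitochondrially encoded genes of module 3 are themselves part of that share, so its r of 0.85 is largely built in. The other 10 modules held no mitochondrially encoded or ribosomal protein gene.

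**Figure D4:**
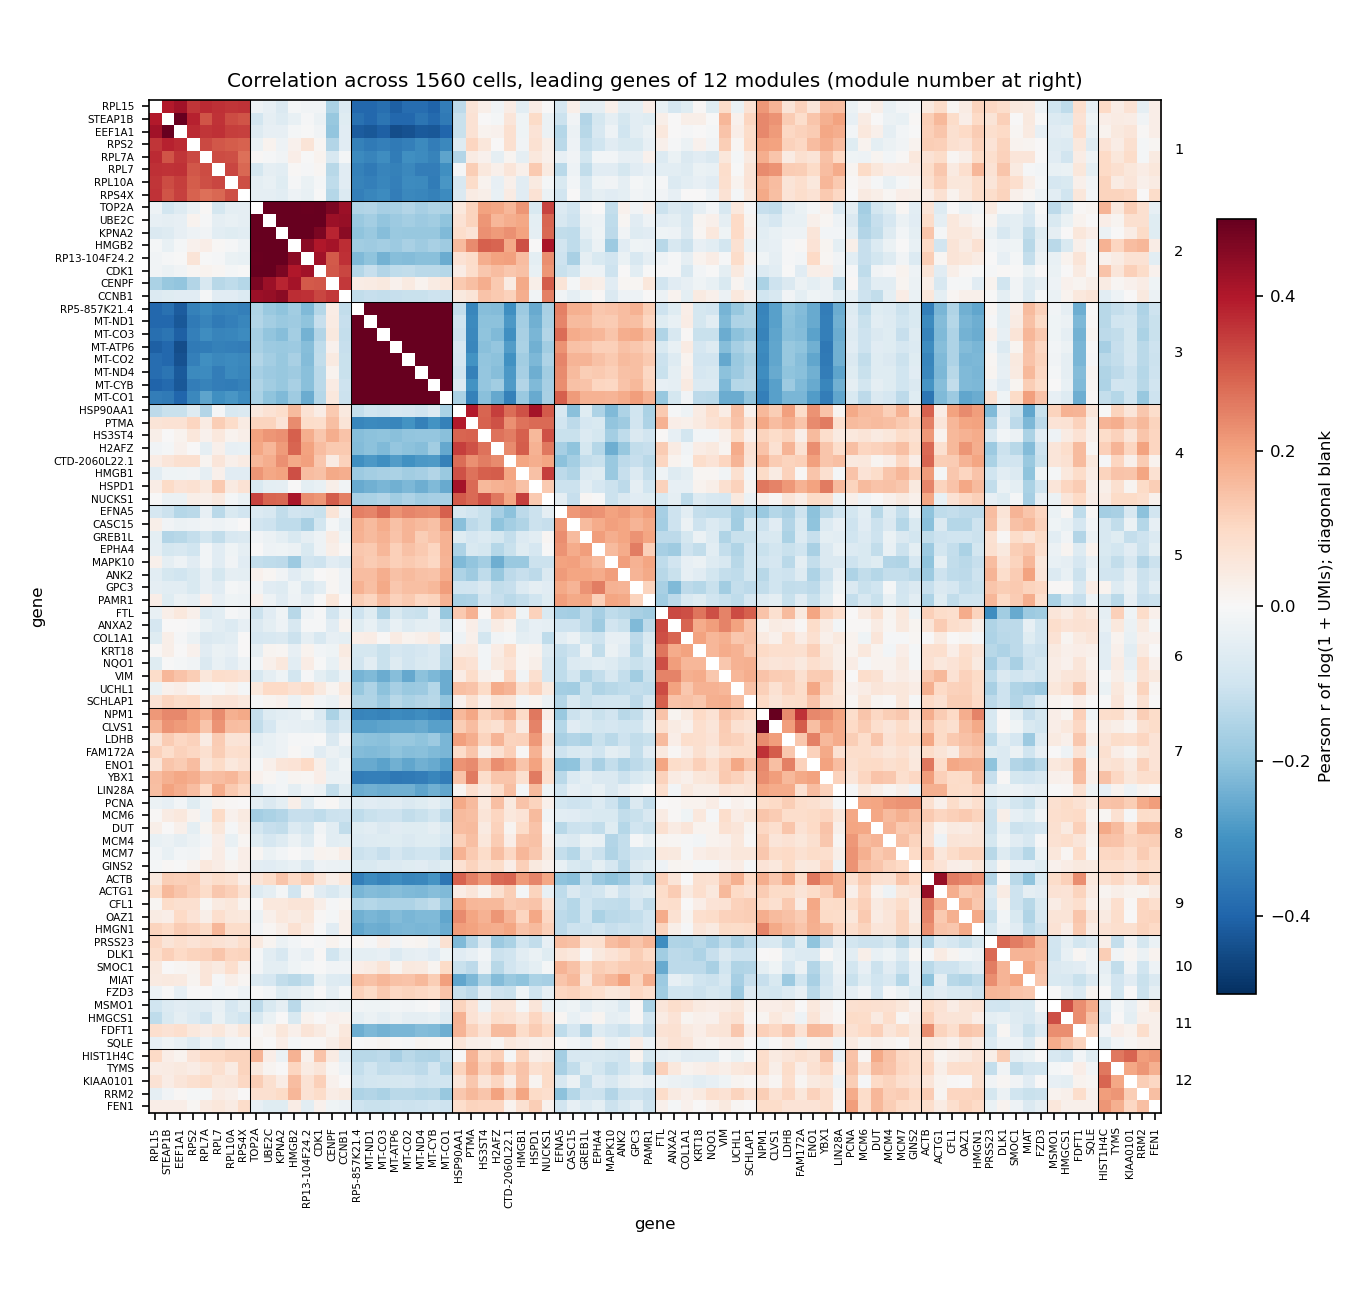
Pearson r across 1560 cells of the library labelled day 0 between the leading genes of 12 modules, up to 8 genes each, with both axes listing genes and the colour scale running from -0.5 to 0.5. Red blocks along the diagonal are the modules that chose the genes, and modules 5 and 6 are blue against each other (r = -0.40 between their summed UMIs).

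The next largest was module 2, of mitotic genes. It held 60 genes, 39 of which are in the list of G2 and mitosis genes used here, and was led by TOP2A, the topoisomerase that untangles chromosomes, UBE2C, a ubiquitin enzyme of the anaphase-promoting complex, KPNA2, a nuclear import receptor, and HMGB2, a chromatin protein. TOP2A and UBE2C reached r = 0.62, KPNA2 and TOP2A 0.60, CENPF and HMGB2 0.41, CENPE and CENPF 0.39 and CCNB2 and PTTG1 0.38. Of the 1176 pairs within the list, 459 reached 0.2, where 0.029% of all pairs outside mitochondrial and ribosomal protein genes did. The module's genes summed to 3 to 174 UMIs per cell with a median of 33.5, and the highest 5% of cells held 14.6% of them. Its total level was 9211 CPM, against 8336 and 6103 CPM in the libraries labelled day 2 and day 6.

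The promoters of these genes are shown because the module's genes correlate across cells, and because mitotic genes are known for 2 promoter elements: the CCAAT box, bound by NF-Y, and the cell cycle genes homology region (CHR), bound by the complexes DREAM and MYB-MuvB. The 250 bases before the start of each gene were taken from RefSeq (GRCh38.p14) and both strands were searched for the letters CCAAT. They were searched in the same way for the letters TTTGAA of the CHR. The 4 highest-ranked genes of the module that have a single start in the table are printed 5′ to 3′ on the gene's strand, with both motifs in capitals. They lie at chr17:40417897-40418146 (TOP2A, minus strand), chr17:68035485-68035734 (KPNA2, plus strand), chr1:214602945-214603194 (CENPF, plus strand) and chr5:69166900-69167149 (CCNB1, plus strand).
TOP2A: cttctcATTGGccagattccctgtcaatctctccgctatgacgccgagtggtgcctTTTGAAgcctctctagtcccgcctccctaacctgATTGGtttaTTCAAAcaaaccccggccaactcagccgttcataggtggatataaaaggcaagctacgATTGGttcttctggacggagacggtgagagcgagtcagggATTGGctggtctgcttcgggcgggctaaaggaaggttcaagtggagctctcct
KPNA2: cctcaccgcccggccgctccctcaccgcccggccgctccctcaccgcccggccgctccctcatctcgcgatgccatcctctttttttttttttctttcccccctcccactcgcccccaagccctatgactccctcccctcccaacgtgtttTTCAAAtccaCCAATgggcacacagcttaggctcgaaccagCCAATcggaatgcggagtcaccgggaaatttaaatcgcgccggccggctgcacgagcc
CENPF: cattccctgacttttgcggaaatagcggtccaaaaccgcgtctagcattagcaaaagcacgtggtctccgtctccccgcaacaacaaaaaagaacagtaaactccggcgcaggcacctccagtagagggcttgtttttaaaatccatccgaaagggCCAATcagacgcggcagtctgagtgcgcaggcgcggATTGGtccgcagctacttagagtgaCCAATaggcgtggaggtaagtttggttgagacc
CCNB1: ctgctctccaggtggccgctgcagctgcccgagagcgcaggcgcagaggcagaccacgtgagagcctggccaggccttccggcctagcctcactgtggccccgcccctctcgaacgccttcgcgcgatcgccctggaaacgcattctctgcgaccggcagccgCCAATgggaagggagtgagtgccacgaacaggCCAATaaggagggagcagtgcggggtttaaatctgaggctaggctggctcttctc

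The 4 windows held 4, 2, 3 and 2 CCAAT boxes and 2, 1, 0 and 0 CHR motifs, in the order printed. Of the 60 genes of module 2, 48 were matched, with 59 listed starts. Of these 59 windows 44 (74.58%) held a CCAAT box and 30 (50.85%) held at least 2, beside 32.01% and 9.531% of all 35116 windows in the table. The CHR letters were in 28 of 59 (47.46%), beside 13.32% of all windows. Letters of the metal response element, a motif described below with MT2A, were in 24 of 59 (40.68%), beside 24.83% of all windows. A higher share in these windows was therefore not limited to the CCAAT box and the CHR. These are matches of letters, with no measure of binding in these data.

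Modules 8 and 12 had 4 of 6 and 3 of 5 genes in the S phase list. Module 8 held PCNA, MCM6, DUT, MCM4, MCM7 and GINS2, genes of the replication fork and of nucleotide supply, and its summed UMIs ran from 0 to 23 per cell with a median of 3. Module 12 held HIST1H4C, TYMS, KIAA0101, RRM2 and FEN1. Sums of modules 8 and 12 had an r of 0.30 and those of 2 and 12 one of 0.28, while those of 2 and 8 had -0.01. Of the 300 pairs within the S phase list 4 reached 0.2 (1.33%, beside 0.029% of all pairs outside mitochondrial and ribosomal protein genes). SNHG3, a host of small nucleolar RNAs, ran opposite to TOP2A (r = -0.24).

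**Figure D5:**
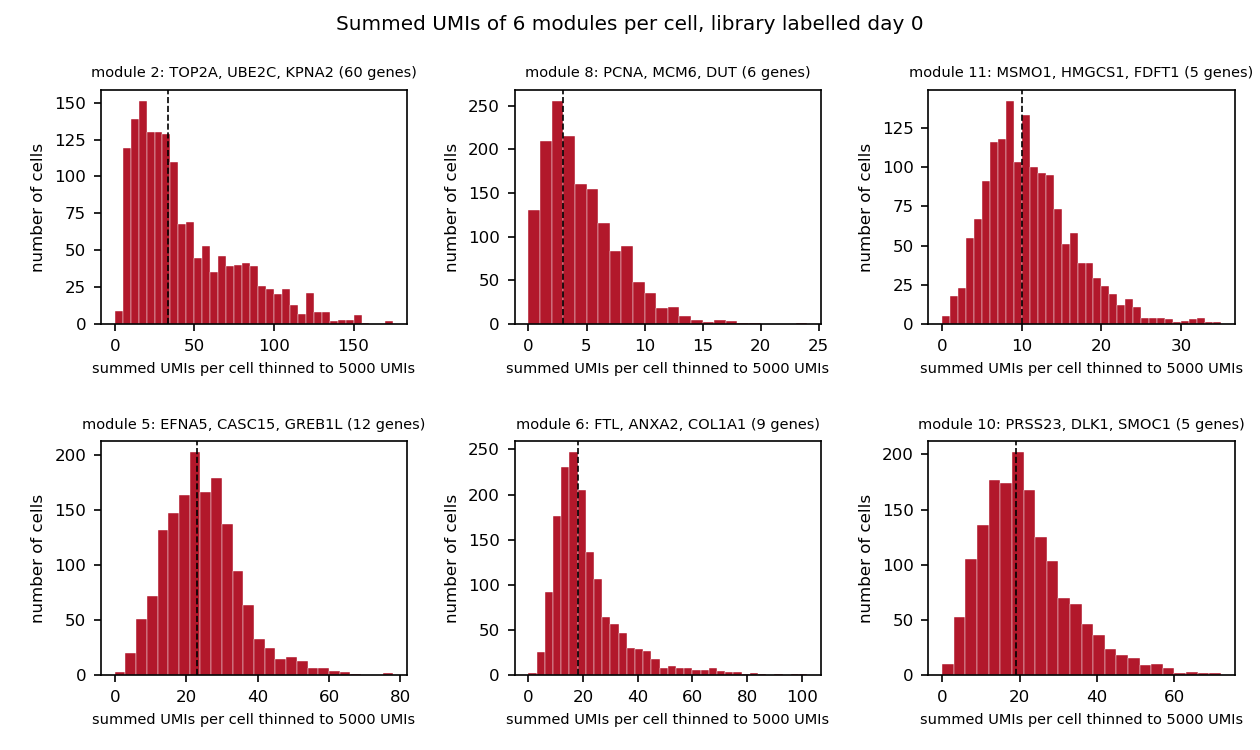
Histograms of the summed UMIs of 6 modules per cell, over 1560 cells thinned to 5000 UMIs; the vertical axes give numbers of cells and dashed lines the medians. The mitotic module 2 has a long tail from a median of 33.5 up to 174 UMIs, and module 6 one from 18 up to 101, whereas module 5 is more even around 23.

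Modules 5 and 10 ran with each other and opposite to module 6. Module 5 held 12 genes: EFNA5 and EPHA4, an ephrin and an Eph receptor of cell sorting, GPC3, a cell surface proteoglycan, MAPK10, a neural kinase, ANK2, a membrane scaffold, LGR4, an R-spondin receptor, the factors ZNF521 and SOX5, and CASC15, GREB1L, PAMR1 and IL1RAPL1. Module 10 held DLK1, the protease PRSS23, SMOC1, a secreted BMP antagonist, the RNA MIAT and the WNT receptor FZD3. Module 6 held FTL, ANXA2, COL1A1, the keratins KRT18 and KRT8, the oxidative stress gene NQO1, VIM, UCHL1 and SCHLAP1.

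The summed UMIs of modules 5 and 6 had an r of -0.40, those of 6 and 10 one of -0.31 and those of 5 and 10 one of 0.25. With the mitochondrial share and depth regressed out these were -0.39, -0.31 and 0.26. Module 5 also ran opposite to other modules, with r of -0.38 to module 4, -0.35 to module 9, -0.33 to module 7 and -0.29 to module 8, and these were -0.34, -0.30, -0.27 and -0.27 after the same step. The pairs with the lowest r outside mitochondrial and nuclear RNAs included FTL with PRSS23 at -0.31, FTL with SMOC1 at -0.25 and ANXA2 with GPC3 at -0.22. FTL and PRSS23 stayed between -0.41 and -0.31 under all 11 alternatives. H2AFZ, a histone variant high in dividing cells, ran opposite to MAPK10 at -0.24 and SOX5 at -0.22. Module 5 ran with module 3 (r = 0.38, and 0.41 with the mitochondrial share and depth regressed out). The genes of module 5 are long: their median annotated span was 372 kb, against 47.2 kb over the genes tested that have a span. The part of gene length and of unspliced nuclear RNA in this module was not tested.

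Modules 5 and 10 were also those with the largest gap to the library labelled day 2. Module 5 summed to 4889 CPM against 1134 CPM there and 3442 CPM in the library labelled day 6. GREB1L was at 502.9 CPM against 11.1 and 402 CPM, EFNA5 at 911 against 73.2 and 558 CPM, and GPC3 at 1170.5 against 176 and 174.8 CPM. Module 10 summed to 4146 CPM against 294 and 1250 CPM, and PRSS23 was at 284 CPM against 13.7 and 206 CPM. Module 6 summed to 4318 CPM against 2697 and 3287 CPM.

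The 6 markers correlated weakly with each other. PAX6 and LHX2 had the highest r of the 15 pairs at 0.18, PAX6 and DLK1 had 0.14 and LHX2 and DLK1 0.12, and the other 12 pairs lay between 0.00 and 0.09. Of the 804 cells with PAX6 and the 489 with LHX2, 304 had both. At this setting no marker pair reached 0.2, and none of the 190 pairs within the neural progenitor list or of the 8256 pairs of transcription factors did. That r was reached by 0.029% of all pairs outside mitochondrial and ribosomal protein genes, so the lack of such pairs here is not read as a difference. Over the alternatives run, PAX6 with LHX2 ranged from 0.13 to 0.27 and PAX6 with DLK1 from 0.09 to 0.24. The other marker pairs stayed under 0.2. LHX2 and SIX3 had means of 0.435 and 0.414 UMIs per thinned cell, so a low r is not read as a lack of relation.

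The strongest partners differed from marker to marker. DLK1 had its highest r with PRSS23 at 0.28, then with MIAT, SMOC1 and DPYSL3 at 0.17 and FZD3 at 0.16, and its lowest with FTL at -0.17, BMP4 at -0.15 and KRT18 at -0.15. PAX6 had, after LHX2, r = 0.17 with TPBG, a membrane glycoprotein that dampens WNT signalling, and 0.17 with the repressor ZNF503, neither of them a module gene. Its lowest were FTL at -0.20, FGFBP3, a carrier of fibroblast growth factors, at -0.19, and COL1A1 at -0.17. LHX2 was lowest with FTL at -0.14, KRT18 at -0.13 and WLS at -0.12. Partners of SIX3, NR2F2 and CDH2 did not exceed 0.14, with CDH2 highest with GPC3.

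Set against the sum of module 6, PAX6 had r = -0.21, DLK1 -0.20, LHX2 -0.14 and CDH2 -0.14, while SIX3 and NR2F2 had 0.00 and -0.01. SOX2 had -0.28 and ZNF521 -0.24. BMP4 had 0.28 and FGFBP3 0.24, and both of these ran opposite to the sum of module 10, at -0.22 and -0.10. The genes in this comparison other than the 6 markers were chosen after their values were seen.

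Modules 4, 7, 9 and 11 held genes of mixed function or of a single pathway. Module 4 held 21 genes around HSP90AA1, PTMA, HSPD1, HSPE1 and the histone H2AFZ; HSP90AA1 had r = 0.42 with the mitochondrial chaperone HSPD1 and 0.40 with PTMA, and its lowest r with the nuclear RNA MIAT at -0.26 and with TXNIP, an inhibitor of glucose uptake, at -0.24. Module 7 held NPM1, LDHB, ENO1, YBX1 and LIN28A with CLVS1 and FAM172A, whose spans hold copies of NPM1. Module 9 was ACTB, ACTG1, CFL1, OAZ1 and HMGN1, with ACTB and ACTG1 at r = 0.43. Module 11 included the cholesterol genes MSMO1, HMGCS1, FDFT1 and SQLE, with 0 to 34 UMIs per cell and a median of 10. Within the cholesterol list 4 of 136 pairs reached 0.2 (2.94%, beside 0.029% of all pairs outside mitochondrial and ribosomal protein genes).

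The metallothioneins MT1E and MT2A were a pair of their own, at r = 0.58. MT2A was found in 489 of the 1560 cells and MT1E in 152, and 116 cells had both. Over the whole library MT2A was at 242 CPM against 59.3 and 281 CPM in the libraries labelled day 2 and day 6, and MT1E at 52.8 CPM against 33.9 and 74.1 CPM. The 2 are neighbours on chromosome 16 and closely similar in sequence, so how the authors' counting divided reads between them is uncertain. The MT2A promoter is shown because metallothionein genes answer to metals through metal response elements (MRE), bound by MTF1. It lies at chr16:56608334-56608583 (plus strand, RefSeq, GRCh38.p14), 250 bases before the start, with matches to TGCACNC and TGCGCNC on either strand in capitals.
MT2A: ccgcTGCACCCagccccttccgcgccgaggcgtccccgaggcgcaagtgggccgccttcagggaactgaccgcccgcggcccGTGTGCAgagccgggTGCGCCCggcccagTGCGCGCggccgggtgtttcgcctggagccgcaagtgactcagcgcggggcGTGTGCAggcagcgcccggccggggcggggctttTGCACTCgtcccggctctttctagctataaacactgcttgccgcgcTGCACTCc

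The window held 7 such matches, and 24.83% of all 35116 windows held at least 1. The matches are letters only, with no binding measured here.

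Part of the strongest correlations joined a gene with another that carries a copy of it. EEF1A1 and STEAP1B reached r = 0.60, and STEAP1B (chr7:22419444-22727613, minus strand, hg38) contains the processed copy EEF1A1P6 in its annotated span; STEAP1B itself was the third highest gene outside mitochondrial and ribosomal protein genes, at 5413 CPM. In the same way CLVS1 holds NPM1P6 and ran with NPM1 (r = 0.54), DTWD2 holds PTMAP2 and ran with PTMA (0.42), GAREM1 holds HNRNPA1P7 and ran with HNRNPA1 (0.40), and SVIL holds CKS1BP2 and ran with CKS1B (0.37). PCBD2 holds copies of 6 mitochondrial genes, with r of 0.19 to 0.48 to their originals. It followed the mitochondrial share at r = 0.51, and its r with RP5-857K21.4 was 0.48, or 0.08 with that share and depth regressed out. Over 457 such pairs of a gene and the original of a copy in its span, 24 reached 0.2 (5.25%), and the median was 0.00. For these hosts a level may be that of the original, and reads of near-identical copies cannot be told apart here. KPNA2 with RP13-104F24.2 (0.63) and HSPA8 with CTD-2060L22.1 (0.49) were of the same strength, but those clone-based names had no entry in the annotation used here. SERF1A and SERF1B, 2 near-identical copies on chromosome 5, had 0.40.

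Some of the pairs of lowest r moved with the mitochondrial share and others did not. RP5-857K21.4 was in 74 of the 148 pairs at most -0.2 outside mitochondrial and ribosomal protein genes, led by HNRNPA1 at -0.42 and EEF1A1 at -0.42. With the mitochondrial share and depth regressed out these 2 were -0.10 and -0.15. MALAT1 was in 18, led by NPM1 at -0.32, which was -0.29 after the same step. The r of FTL with PRSS23 and of SNHG3 with TOP2A stayed at -0.31 and -0.24. Without mitochondrial and ribosomal protein genes, hosts of copies and genes with no annotated span, there were 50 pairs at most -0.2 and 1138 at least 0.2.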

How the data were processed

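Single-cell RNA of H9 was read out with inDrop (TruDrop) in 3 libraries, 1 per labelled day. The authors deposited whole-number counts per gene symbol and barcode, taken here as UMI counts. STAR and hg38 are named in the submitters' processing notes, while annotation, strand setting and barcode filter were not given in the sources used here. All deposited barcodes had at least 100 genes. Levels are UMIs summed over kept cells per 1000000 UMIs (CPM), with exact Poisson 95% intervals, and ratios have exact conditional binomial 95% intervals. Shares of cells have Clopper-Pearson intervals. A level of 0 UMIs was set to 3 UMIs where a bound was needed, and all intervals and bounds cover counting error only. Cells of at least 5000 UMIs were thinned to 5000 without replacement, leaving out shallower cells (1560, 1000 and 1946 cells were used in the libraries labelled day 0, 2 and 6). Fano factors and Pearson r used the genes with at least 50 CPM. Modules came from average linkage on 1 - r, cut at a mean r of 0.15, with at least 5 genes. The 29 gene lists hold 554 symbols, of which 8 were not found and 1 was matched by an older symbol.

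Named genes were the 20 highest outside mitochondrial and ribosomal protein genes, the 5 highest of those classes, the 20 highest factors and the 10 of highest Fano factor, the 6 markers with their 5 partners of highest r, the 20 pairs of highest and of lowest r with a gene in at most 2, the 20 genes of highest Fano factor, up to 6 members of a list and up to 8 of a module; genes beyond these were chosen after their values were seen, and a few genes that the rules name are not reported here. The members, lists and rules were chosen with earlier results of these data known. Doublets were kept: scrublet in scanpy 1.11.5 marked only 5 of 2290 cells and so is not taken to have worked. Gene spans and copies came from GENCODE 29. Calculations used numpy 2.4.6, scipy 1.17.1 and pandas 2.3.3, and were tested on simulated data. Alternatives were other limits on UMIs and mitochondrial share, other scalings, depths and correlation, and cells with low doublet scores. Leaving out cells with shared barcodes and leaving out gene classes were added after seeing the data.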

Additional observations from a re-analysis of the deposited data

Results flagged for a closer look

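RNA of the 6 markers was also present in the 9001 barcodes of the library labelled day 0 that were not kept as cells, which held 4490232 UMIs and enter no comparison above. There PAX6 was at 187 CPM, LHX2 at 68.6 CPM, SIX3 at 74.4 CPM, DLK1 at 3324 CPM, NR2F2 at 177 CPM and CDH2 at 369 CPM, each above the 0.668 CPM that 3 UMIs amount to in these barcodes. In the kept cells the same genes were at 176, 82.4, 82.2, 3137, 263.9 and 445.7 CPM. These barcodes hold both damaged cells and droplets without a cell, and their parts in these values were not tested.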

How the results depend on the processing

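Counts of genes and transcription factors with at least 10 CPM stayed within 1.5 times of the main value under every alternative run. Of the 47 neural progenitor and forebrain genes, 20 were at least 2-fold above the library labelled day 6, and 11 with a minimum of 50 CPM. Pairs with r of at least 0.2 numbered 2698, and 13857 with at most 10% mitochondrial UMIs, 7688 in cells of at least 10000 UMIs thinned to 10000, 15269 without thinning, 1539 without mitochondrial and ribosomal protein genes, and 1138 when hosts of copies and genes with no span were left out too. Pairs with r of at most -0.2 numbered 1457, and 9525 with at most 10% mitochondrial UMIs, 259 with at least 5%, 4196 without thinning, 780 by Spearman, 148 without mitochondrial and ribosomal protein genes, and 50 when hosts and genes with no span were left out too. Genes with a Fano factor of at least 1.5 numbered 189, and 454 at 10000 UMIs, and 112 without those classes, hosts and genes with no span. Leaving out mitochondrial and ribosomal protein genes cut the pairs tested from 5633046 to 5299140. The share with r of at least 0.2 fell from 0.0479% to 0.029%, and that of at most -0.2 from 0.0259% to 0.00279%. These counts thus fell by more than the number of pairs did. The causes of the changes were not tested. With at most 10% mitochondrial UMIs, RP5-857K21.4 was at 6912 CPM, PCDH15 at 308 CPM and ACTC1 at 84.2 CPM, against 13984, 663 and 50.5 CPM. Of the 72 named levels, 57 moved beyond their counting interval with at most 10% mitochondrial UMIs, 47 with at least 5%, 63 when CPM was averaged over cells with equal weight, 10 with at least 2000 UMIs per cell, 1 without cells of shared barcodes, and all 72 with totals that leave out mitochondrial and ribosomal protein genes, whose smaller total scales every level alike. Those that moved by over 1.5 times were these 3 and the 5 mitochondrial genes (MT-RNR2 at 18078, MT-ATP6 at 6556, MT-CO3 at 6351, MT-ND1 at 5757 and MT-CO1 at 5750 CPM). No named pair with r beyond 0.2 changed sign under any alternative run. No paired analysis was possible because each day is 1 library and no result comes from a test. Depth limits shares of cells: at 5000 UMIs, a gene at 10 CPM has under 1 UMI in a typical cell.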

Other observations

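The DLK1 domain was described by 3 of its RNAs in the list of imprinted genes. Beside DLK1 and MEG3, MEG8 was at 2.79 CPM against 0.145 and 1.41 CPM in the libraries labelled day 2 and day 6. Of the other imprinted genes, PLAGL1 was at 20.5 CPM against 3.78 and 3.39 CPM, and KCNQ1OT1, the noncoding RNA of the CDKN1C domain, at 51.5 CPM against 26.1 and 39.9 CPM. IGF2 and H19 were at 0.812 and 0.776 CPM. GSC, an organiser homeobox gene, was at 12.3 CPM against 0.339 and 0.121 CPM, and the WNT antagonist DKK1 at 11.2 CPM against 0.436 and 0.703 CPM.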
